A study of Rattus norvegicus with 23 samples.

Results

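Voltage-gated calcium channels open when the membrane depolarises and let calcium enter excitable cells. A pore subunit sets the type of current, and auxiliary beta and alpha2delta subunits govern how many channels reach the surface and how they gate. In sensory neurons of the dorsal root ganglion (DRG) these channels couple spikes to transmitter release, shape firing near threshold and feed calcium signals to the soma. Described here are 6 of their genes, out of 4153 named genes on the array, through all 8 probes annotated to them, out of 5088 probes. The genes are the auxiliary alpha2delta subunit gene Cacna2d1, the pore subunit genes Cacna1i, Cacna1a, Cacna1b and Cacna1e, and the beta subunit gene Cacnb1. Cacna1e has 3 probes and every other gene has 1. The symbols of all 8 probes matched the reference gene table by gene identifier.

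RNA came from L4 and L5 DRGs of Long-Evans rats whose sciatic nerve was transected at postnatal day 20 to 24, a lesion of the peripheral axon branch that conditions these neurons for growth. Lesioned RNA (Cy5) and intact RNA (Cy3) shared each of 23 two-colour arrays, with 3 arrays at 4, 8, 12, 18, 24, 48 and 148 h and 2 at 296 h. Replicate 2 at 296 h is titled with that time, but 294 h is its recorded survival. Other labels call the material cultured cells, although its treatment is recorded as surgery in the animal and dissection of the ganglia. Which animals gave the replicate arrays or the intact RNA was not stated, so the p-values measure the spread between these samples, which may be technical. Every value below is a log2 ratio of lesioned over intact RNA, a direction taken from the dyes. Ratios hold no level of a transcript, so the cell types of the ganglia could not be checked, and fewer cells of a type and less RNA per cell cannot be told apart.

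The 17 arrays with few missing values (full arrays) measured 4945 to 5011 probes, and 6 arrays with over 200 probes missing (sparse arrays) measured 2063 to 4353. The SD of the log2 ratios was 0.506 to 0.913 on full arrays and 1.22 to 1.61 on sparse arrays. The sparse class held 48 h replicates 2 and 3, all 3 arrays at 148 h and 296 h replicate 2, so class and time overlapped. No array exchanged the dyes, so a dye effect of a probe cannot be told apart from its lesion effect at a single time. It cancels in a difference between times if it was constant.

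The first question was which subunits differed between lesioned and intact ganglia at each time. A probe was tested at a time when at least 2 of its arrays had a value, which left 57 of the 64 combinations of 8 probes and 8 times. A probe was counted as changed at a Benjamini-Hochberg adjusted p under 0.05 over all probes tested, from a limma fit with array weights. Of the 57 combinations 6 passed, all in Cacna2d1, Cacna1i and Cacnb1. With the arrays of each time fitted alone none of the 6 passed, nor did any of the 17 single-time calls of list genes followed through the alternatives. At 24 h 3 of 8 probes passed, 1 higher and 2 lower, where 6.19% of all probes passed. At 48 h 2 of 8 passed, 1 higher and 1 lower, against 3.96% of all probes. At 148 h 1 of 5 tested probes passed, lower, against 8.75% of all probes. No probe passed at 4, 8, 12 or 18 h (0 of 8 each), where 1.85%, 1.26%, 3.61% and 2.07% of all probes did, or at 296 h (0 of 4, against 0.106%). Over all times 3 of 8 probes passed at least once, against 15.4% of the probes on the array. The 6 genes were chosen with earlier results of these data known, so the shares here and below do not test the family as a set.

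**Figure D1:**
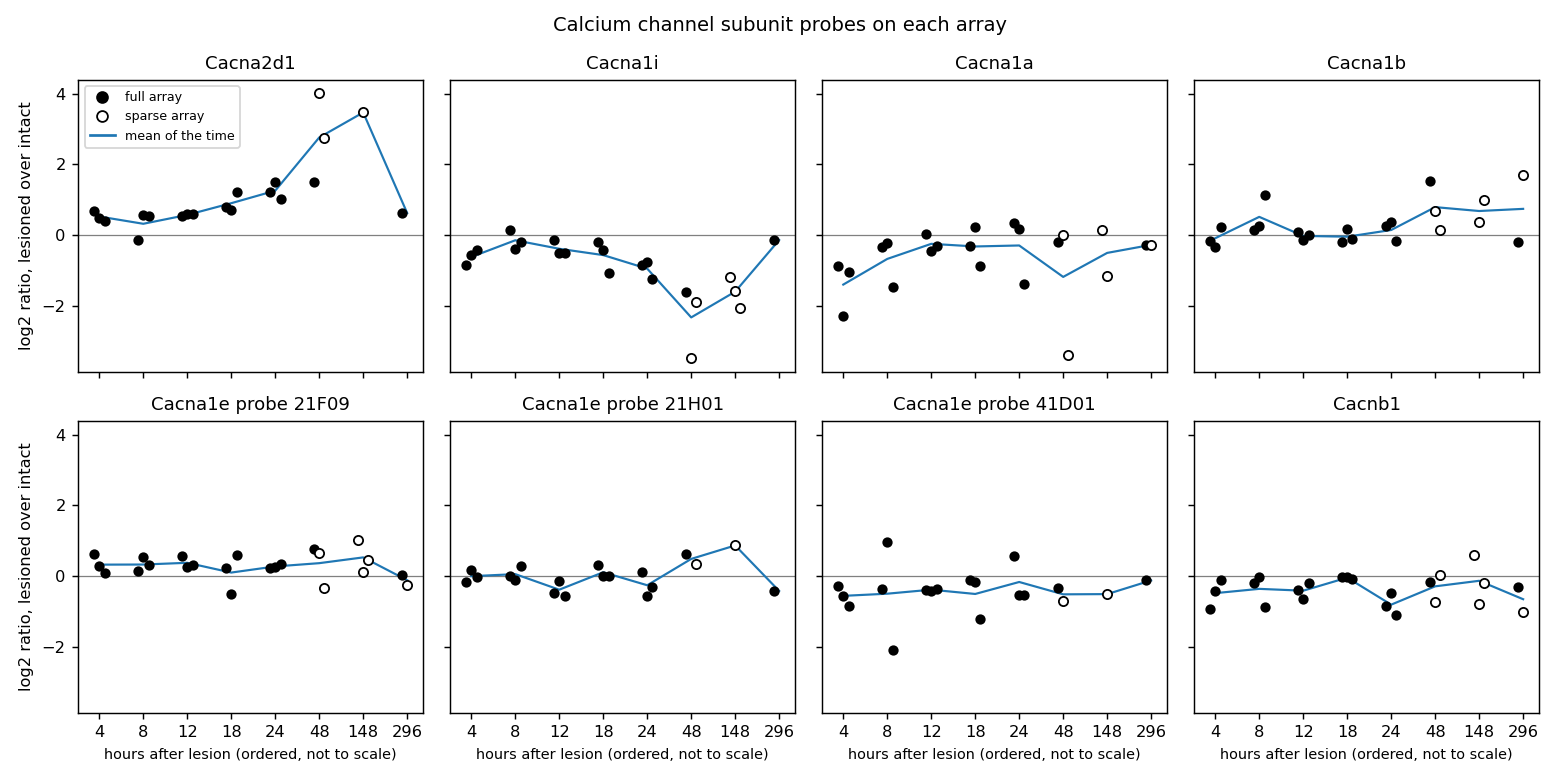
Log2 ratio of lesioned over intact RNA (vertical axis) for each of the 8 channel probes on each array, by hours after the lesion (horizontal axis, ordered and not to scale). Filled points are full arrays, open points are sparse arrays and the line joins the means of the times. Cacna2d1 lies above 0 on 19 of 20 arrays, and Cacna1i lies below 0 on 21 of 22.

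Cacna2d1 encodes the alpha2delta subunit that gabapentin and pregabalin bind and that carries channels to the surface and to presynaptic terminals. Its rise in DRG neurons after injury of a peripheral nerve is well known in rats. Here it was the highest of the 8 probes at 24 and 48 h. The 3 arrays gave 0.68, 0.49 and 0.40 at 4 h, -0.15, 0.56 and 0.54 at 8 h, and 0.52, 0.60 and 0.58 at 12 h. They gave 0.79, 0.70 and 1.21 at 18 h and 1.23, 1.51 and 1.02 at 24 h. Every array at 18 and 24 h lay above every array at 4 to 12 h. At 48 h the full array read 1.50 and the sparse arrays 4.02 and 2.76. A value was read on 1 array each at 148 h (sparse, 3.47) and at 296 h (full, 0.62). By their means the times ran 8, 4, 12, 296, 18, 24, 48 and 148 h from low to high, and neighbours in this order overlapped except 12 and 296 h and 296 and 18 h, where 296 h is a single array.

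The lesion effect of Cacna2d1 passed the threshold at 24 h and at 48 h. At 24 h the fitted value was 1.25 ± 0.23 (SE, n = 3; limma adjusted p = 0.00554), 2.38-fold higher in lesioned ganglia. At 48 h it was 2.66 ± 0.40 (SE, n = 3; limma adjusted p = 0.00184), or 6.32-fold, with an SD of 1.26 between the arrays. At 18 h the value of 0.83 ± 0.21 did not pass (adjusted p = 0.0548), nor did 0.58 ± 0.19 at 12 h (adjusted p = 0.0922). The call at 24 h was lost with equal array weights (1.25), without 24 h replicate 2 (1.12) and without 24 h replicate 3 (1.37). The call at 48 h held with each array left out in turn (2.13 to 3.39) and was lost with array class as a block, where the full array alone sets the value (1.50).

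Cacna1i encodes a pore subunit of T-type channels, which open at small depolarisations and favour burst firing. It ran opposite to Cacna2d1, below 0 on 21 of 22 arrays. Values were -0.86, -0.57 and -0.43 at 4 h, 0.14, -0.39 and -0.20 at 8 h, and -0.15, -0.52 and -0.50 at 12 h. At 18 h they were -0.20, -0.43 and -1.08, and at 24 h -0.86, -0.75 and -1.24. The 24 h arrays overlapped those at 4 and 18 h and lay below those at 8 and 12 h. At 48 h the full array read -1.60 and the sparse arrays -3.49 and -1.90, all below every array at 4 to 24 h. The sparse arrays at 148 h read -1.18, -1.58 and -2.06, and the only value at 296 h, from the full array, was -0.14. From low to high the means ran 48, 148, 24, 4, 18, 12, 8 and 296 h, and each time overlapped the next.

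Cacna1i fell at 24, 48 and 148 h. The fitted value was -0.98 ± 0.20 at 24 h (SE, n = 3; limma adjusted p = 0.00912), so that lesioned ganglia held 0.509 of the intact amount. It was -2.36 ± 0.36 at 48 h (SE, n = 3; limma adjusted p = 0.00105), or 0.195 of the intact amount, and -1.68 ± 0.41 at 148 h (SE, n = 3; limma adjusted p = 0.0177), or 0.312. The call at 24 h was lost with equal array weights (-0.95) and without 24 h replicate 3 (-0.81), that at 48 h without 48 h replicate 2 (-1.75) and with array class as a block (-1.60). That at 148 h was lost without 148 h replicate 2 (-1.62) or 3 (-1.38) and with the class block (-0.31). No array at 148 h was full. The block there rests on 48 h, the only time with both array classes for this probe.

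Markers of other cells were listed as a set of 4 cell types and counted at the same times. Of 8 macrophage genes, none of 8 tested probes passed at 24 h (median -0.08), 1 of 5 was higher at 48 h (median 0.62) and 2 of 3 at 148 h (median 2.03). Of 15 sensory neuron probes, 2 of 14 were higher and 1 lower at 24 h (median 0.19), 0 of 15 were higher and 1 lower at 48 h (median -0.16), and 0 of 13 were higher and 4 lower at 148 h (median -0.63). Schwann cell and satellite glia probes gave 2 higher and 2 lower of 17 at 24 h (median 0.07), 1 higher of 17 at 48 h (median -0.09) and 1 higher of 15 at 148 h (median -0.13). Skeletal muscle probes were included because muscle uses several calcium channel genes. They gave 1 lower of 10 at 24 h (median 0.003), none of 10 at 48 h (median -0.25) and 1 lower of 6 at 148 h (median 0.74). The 1 lower at 148 h was Ryr1 probe 21G05, and the highest probe of this list there read 2.36. Of all probes tested 6.19% passed at 24 h, 3.96% at 48 h and 8.75% at 148 h. The median over all probes tested lay between 0.01 and 0.03 at these 3 times. The part of these shifts in the calcium channel values was not tested.

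The next comparison asked whether the lesion effect itself changed between times, which a constant dye effect does not touch. The 48 h value was set against the mean of 4, 8 and 12 h. In this difference 2 of 8 probes passed, against 0.956% of all probes. Cacna2d1 had a mean of 2.76 ± 1.26 at 48 h (SD, n = 3) and of 0.47 ± 0.24 over 4 to 12 h (SD, n = 9), and every 48 h array stood above every early array. The fitted difference was 2.22 ± 0.42 (SE, 12 arrays; limma adjusted p = 0.0192), a 4.64-fold larger ratio at 48 h. Cacna1i had a mean of -2.33 ± 1.02 at 48 h (SD, n = 3) and of -0.39 ± 0.29 over 4 to 12 h (SD, n = 9), again without overlap. Its fitted difference was -1.97 ± 0.37 (SE, 12 arrays; limma adjusted p = 0.0158). Both calls were lost without 48 h replicate 2 (1.68 and -1.36), with each array scaled to an equal spread (1.33 and -1.19) and with array class as a block (1.06 and -1.21). On full arrays alone, where 48 h is a single array and the other times supply the spread, the difference was 1.06 for Cacna2d1, which did not pass, and -1.22 for Cacna1i, which passed.

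**Figure D2:**
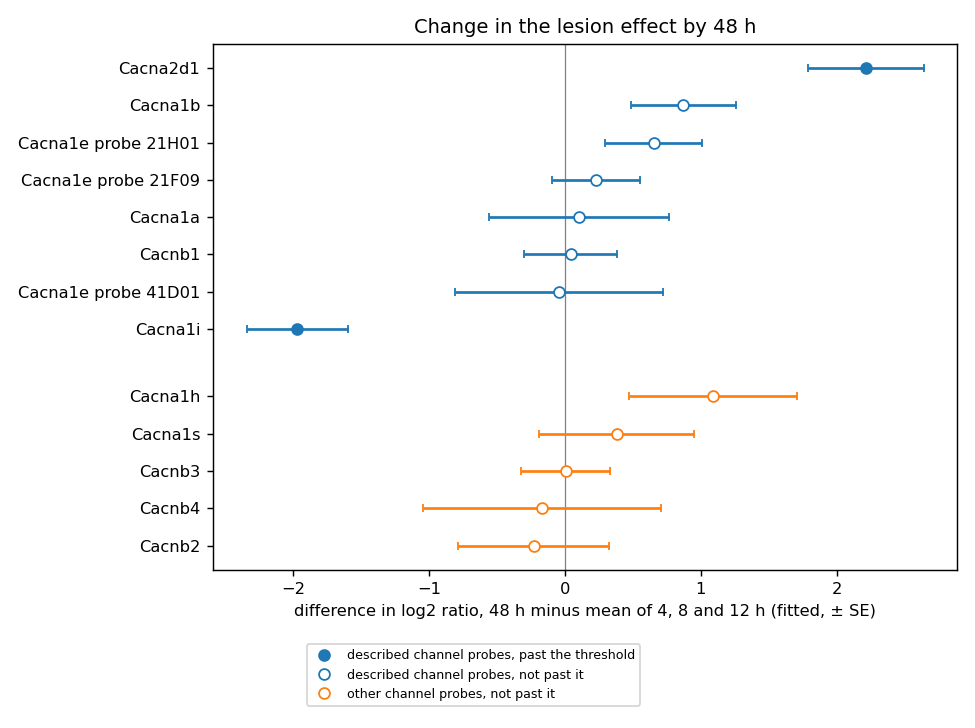
Difference in the log2 ratio of lesioned over intact RNA, 48 h minus the mean of 4, 8 and 12 h (horizontal axis, fitted value ± SE), for the 8 channel probes (blue, upper block) and the 5 other calcium channel probes that could be tested (orange, lower block). Filled points passed the threshold. Cacna2d1 at 2.22 and Cacna1i at -1.97 are the 2 that passed.

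A change before 48 h was examined after these values had been seen. The difference of 24 h against 4 to 12 h was 0.81 ± 0.26 for Cacna2d1 and -0.59 ± 0.23 for Cacna1i (SE), and neither passed (limma adjusted p = 0.492 and 0.608). The difference of 18 and 24 h together against 4 to 12 h was 0.59 ± 0.20 for Cacna2d1 and -0.33 ± 0.18 for Cacna1i, with adjusted p of 0.677 and 0.854. All of these arrays were full. Few probes of the array passed in these 2 differences, 0.239% and 0.199% of all probes when 1 array per time was required.

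The probes of Cacna2d1 and Cacna1i mirrored each other across arrays. Over the 20 arrays with both values Pearson's r was -0.90 and Spearman's rho -0.77, and on the 17 full arrays r was -0.80. The points share their arrays and times, so the r describes these libraries and was not tested. The remaining pairs of the 8 probes had r between -0.48 and 0.55.

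**Figure D3:**
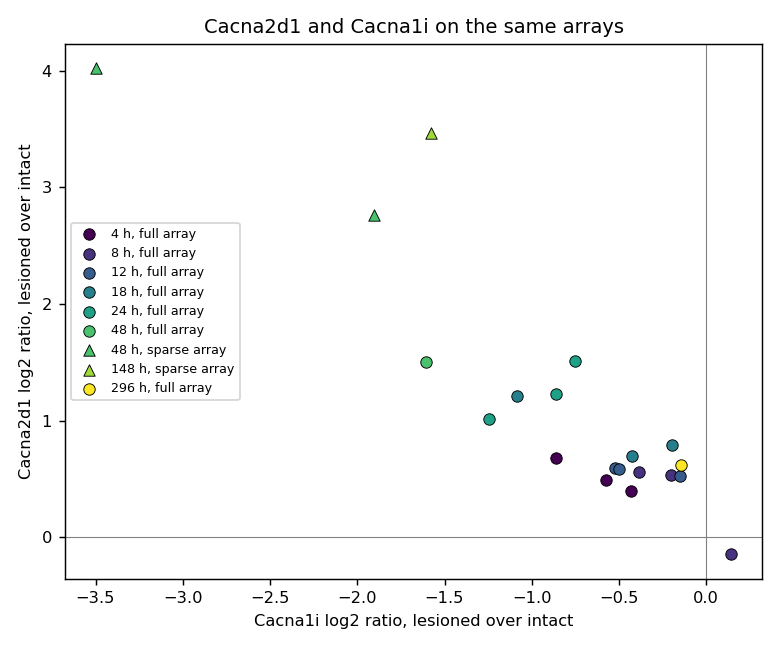
Log2 ratio of lesioned over intact RNA of Cacna2d1 (vertical axis) against that of Cacna1i (horizontal axis) on each of the 20 arrays that measured both, coloured by hours after the lesion, circles for full and triangles for sparse arrays. The 48 h arrays and the single 148 h array lie towards the upper left, and the 296 h array lies among the early ones.

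Of the high-voltage-activated pore subunits, none passed the threshold at a single time. Cacna1b encodes the pore of the N-type channel, which carries much of the calcium that triggers release from nociceptor terminals and is blocked by omega-conotoxin. Its values at 4 to 24 h ranged from -0.33 to 1.13 with a mean of 0.10 ± 0.35 (SD, n = 15), and 8 of 15 lay above 0. At 48 h its arrays read 1.53 (full), 0.68 and 0.15, at 148 h replicates 2 and 3 read 0.37 and 0.99, and at 296 h the full array read -0.21 and the sparse array 1.69. The fitted value at 48 h was 0.97 ± 0.37 (SE, n = 3) and did not pass (limma adjusted p = 0.159). The difference of 48 h against 4 to 12 h, 0.87 ± 0.39, did not pass either (adjusted p = 0.361). The arrays at 48, 148 and 296 h overlapped those of the first day.

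Cacna1a encodes the pore of the P/Q-type channel, the main release channel of many central synapses. It was below 0 on 16 of 22 arrays and spread widely. Its lowest mean was at 4 h, where the arrays read -0.87, -2.30 and -1.04. The fitted value there, -1.44 ± 0.39 (SE, n = 3), did not pass (limma adjusted p = 0.0709). At 8 h it read -0.35, -0.22 and -1.46, at 12 h 0.02, -0.45 and -0.32, and at 24 h 0.34, 0.16 and -1.39. At 48 h the full array read -0.19 and the sparse arrays 0.01 and -3.38, the lowest value of the probe beside values close to 0. The 2 arrays at 148 h read 0.16 and -1.17, and those at 296 h -0.27 and -0.29. Every time overlapped its neighbour in the order of means.

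Cacna1e encodes the pore of the R-type channel, and its 3 probes, made to different accessions of the gene, disagreed. Probe 21F09 was above 0 on 20 of 23 arrays, with all 9 arrays at 4 to 12 h between 0.07 and 0.61. At 24 h it read 0.23, 0.24 and 0.34, and at 48 h 0.77 (full), 0.65 and -0.33. Probe 21H01 was above 0 on 9 and below on 10 of its 19 arrays, with 0.63 (full) and 0.34 at 48 h and 0.86 on the 1 array at 148 h. Probe 41D01 was below 0 on 17 of 19 arrays and ranged from -2.09 to 0.96, both extremes at 8 h, while its arrays at 12 h lay between -0.41 and -0.36. None of the 3 passed at a single time. Across arrays the r between the probes was -0.07 to -0.14, and on full arrays -0.14 to 0.12. No direction is given for the gene.

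Cacnb1 encodes a beta subunit that binds the pore subunit inside the cell and promotes its surface expression, and it is best known as the beta subunit of skeletal muscle. It was below 0 on 21 of 23 arrays and on every one of the 15 arrays of the first day. At 18 h its arrays lay close to 0, at -0.03, -0.03 and -0.08. At 24 h they read -0.84, -0.47 and -1.12, all below those at 18 h, and the fitted value was -0.81 ± 0.18 (SE, n = 3; limma adjusted p = 0.0130), or 0.569 of the intact amount. At 48 h the arrays read -0.17 (full), -0.74 and 0.03, at 148 h 0.58, -0.81 and -0.19, and at 296 h -0.30 (full) and -1.01. The 24 h arrays overlapped those of every time except 18 h, and the difference of 24 h against 4 to 12 h was -0.43 ± 0.21 (adjusted p = 0.675). The call at 24 h was lost with equal array weights (-0.81) and without 24 h replicate 1 (-0.80) or 3 (-0.66).

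The longer comparisons needed 2 or more arrays with a value at each of the 8 times, which Cacna1a, Cacna1b, Cacna1e probe 21F09 and Cacnb1 had. In the mean over the 8 times all 4 passed, where 40% of all probes tested passed, and any dye effect is included. Cacna1b stood at 0.35 ± 0.11 (SE, 22 arrays; limma adjusted p = 0.0222) and Cacna1e probe 21F09 at 0.25 ± 0.09 (23 arrays; adjusted p = 0.0409). Cacna1a stood at -0.58 ± 0.20 (22 arrays; adjusted p = 0.0300) and Cacnb1 at -0.41 ± 0.10 (23 arrays; adjusted p = 0.00262). All 4 calls were lost with array class as a block (0.35, 0.35, -0.43 and -0.30, in that order). Cacna1a lost its call without 148 h replicate 2 (-0.47), and Cacna1b without 48 h replicate 1 (0.28), 48 h replicate 2 (0.33), 148 h replicate 3 (0.31) or 296 h replicate 2 (0.23), and on full arrays alone (0.25). Cacna1e probe 21F09 lost it without any 1 of 7 arrays (4 h replicate 1, 8 h replicate 2, 24 h replicate 3, 48 h replicates 1 and 2, 148 h replicates 1 and 3), with values of 0.20 to 0.26, and also with median centring (0.23), with 1 array per time required in place of 2 (0.25, over more probes tested) and in the mean of the 3 probes of the gene (-0.00834). Cacnb1 kept it with each array left out.

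The mean of 48, 148 and 296 h against that of 4, 8 and 12 h gave no call among these 4 (0 of 4, against 4.98% of all probes), with values from -0.04 for Cacnb1 to 0.69 for Cacna1b. A test that all 8 times were equal gave none either (0 of 4, against 0.817%). Requiring 1 array per time instead of 2 brought the other 4 probes in. Cacna2d1 then differed by 1.81 ± 0.40 between late and early times (SE, 20 arrays; limma adjusted p = 0.0278), with its 148 and 296 h values each from a single array. Cacna1i differed by -1.005 ± 0.315 (22 arrays) and did not pass (adjusted p = 0.0994). With that rule 2.68% of all probes passed. The mean over the 8 times under the same rule was 1.27 for Cacna2d1 and -0.85 for Cacna1i, the farthest from 0 of the 8 probes. It includes any dye effect and times with a single array.

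Other subunits of the family were taken from a list of 20 genes, of which 9 were on the array with 1 probe each. These were the pore subunits Cacna1c and Cacna1d (L-type), Cacna1g and Cacna1h (T-type) and Cacna1s (the muscle L-type), the beta subunits Cacnb2, Cacnb3 and Cacnb4, and the muscle gamma subunit Cacng1. None of the 9 passed at 24 h, where their median was 0.10, and none of the 5 tested passed at 48 h, where it was 0.31. Cacna1h, the other T-type gene with a value at 48 h on 2 arrays, stood at 1.13 ± 0.59 (SE; limma adjusted p = 0.346), on the other side of 0 from Cacna1i. Cacna1g had 1 array at 48 h, at 0.28. Cacnb3 stood at 0.49 ± 0.18 at 24 h (SE, n = 3; adjusted p = 0.114), where Cacnb1 was lower. Cacng1 alone passed at a single time (1 of 9 probes, against 15.4% of all probes), at 148 h (1.77 ± 0.48, SE, n = 2; limma adjusted p = 0.0343), and its 1 array at 48 h read -1.44. Its call was lost without 148 h replicate 2 (2.10) or 3 (1.48), and its value was 1.16 after scaling to an equal spread.

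Regulators and presynaptic partners of the channels had 29 of 41 listed genes on the array, with 32 probes. Over single times 2 were higher and 5 lower at least once, 7 of 32 against 15.4% of all probes. At 24 h 1 was higher and 3 lower, 4 of 32 against 6.19%, with a median of -0.10 over the list against 0.03 over all probes. Rgs4, which shortens G protein signals that inhibit N-type channels, fell at 24 h (-1.42 ± 0.28, SE, n = 3; limma adjusted p = 0.00699). Dpysl2 (CRMP2), a growth cone protein that binds N-type channels, fell as well (-1.04 ± 0.23, adjusted p = 0.0106). One probe of Calm3, a gene for the calcium sensor calmodulin, fell (41G11, -1.39 ± 0.20, adjusted p = 0.00050), and the other read -0.01 ± 0.13. Calm2, another calmodulin gene, was the 1 higher at 24 h (0.53, limma adjusted p = 0.0397), a call lost with equal array weights. Without 24 h replicate 3 the calls of the 3 lower genes were lost, at -0.92 for Rgs4, -0.89 for Dpysl2 and -1.11 for Calm3. Dpysl2 also lost its call with equal array weights (-1.04), and the mean of the Calm3 probes was -0.70. Rgs2, another regulator of G protein signals, rose at 48 h (1.52 ± 0.34, SE, n = 3; adjusted p = 0.0180), and lost the call without 48 h replicate 2 or 3 (1.34 to 2.33 over all left-out arrays) and with array class as a block (1.15). The only full array at 48 h read 0.69, and on full arrays alone, where the other times supply the spread for that single array, the call was lost.

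Calcium stores, pumps and exchangers had 24 genes and 26 probes on the array, of which none was higher and 2 were lower at least once, 2 of 26 against 15.4% of all probes. Calr, a calcium-binding chaperone of the endoplasmic reticulum, fell at 24 h (-1.43 ± 0.35, SE, n = 3; limma adjusted p = 0.0200), a call lost with equal array weights (-1.37), on full arrays alone (-1.42) and without any of the 3 arrays (the highest value left was -1.07). Ryr1, the release channel of muscle stores, fell at 148 h on probe 21G05 (-3.07 ± 0.65, SE, n = 2; adjusted p = 0.00886), was -0.14 ± 0.44 on its other probe, and lost the call without 148 h replicate 2 (-2.24) or 3 (-3.84) and with array class as a block (-3.42). The mean of both Ryr1 probes was -1.56. The list's median was -0.05 at 24 h and 0.12 at 48 h, against 0.03 and 0.01 over all probes.

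Calcium-binding buffers and sensors had 24 genes and 26 probes, with 3 higher and 3 lower at least once, 6 of 26 against 15.4% of all probes. Ocm, a parvalbumin-type buffer, rose in late against early times (1.68 ± 0.21, SE, 23 arrays; limma adjusted p = 0.000145) and kept the call with each array left out (1.37 to 1.99). The call was lost with array class as a block (1.26), and the value was 1.004 with each array scaled to an equal spread. In that comparison 2 of 16 tested probes of the list were higher, against 4.98% of all probes in either direction. At 148 h S100a1 fell (-1.74 ± 0.37, SE, n = 3; adjusted p = 0.00760), and so did Hpcal4, a neuronal calcium sensor gene (-1.93 ± 0.49, adjusted p = 0.0197). S100a1 lost the call without 148 h replicate 3 (-1.37), and Hpcal4 without 148 h replicate 2 or 3 (-2.01 to -1.74 over all left-out arrays). Both were lost with array class as a block (-1.36 and -2.46), all 148 h arrays being sparse, and read -1.08 and -1.19 after scaling to an equal spread. S100b, a glial member of the family, fell at 24 h on probe 52D05 (-0.77 ± 0.16, adjusted p = 0.0102), a call lost with equal array weights (-0.80) and without 24 h replicate 1 or 3 (-0.93 to -0.69 over all left-out arrays). It was 0.07 ± 0.14 on probe 35H08, and the call was also lost for the mean of both probes (-0.35).

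Voltage-gated sodium channel subunits, the other main inward current of these neurons, had 9 genes and 10 probes on the array, of which 1 passed at least once, against 15.4% of all probes. At 48 h 0 of 9 tested probes passed (median -0.21), against 3.96% of all probes. Scn11a rose at 12 h (0.75 ± 0.20, SE, n = 3; limma adjusted p = 0.0431) and at 24 h (0.86, adjusted p = 0.0451). With equal array weights no probe of this list passed at 24 h. The nociceptor channel gene Scn10a fell in late against early times (-0.94 ± 0.26, 23 arrays; adjusted p = 0.0450). The 12 h call of Scn11a and the call of Scn10a were each lost in over 15 of the 23 fits that left out 1 array. The values there were 0.40 to 0.87 and -1.02 to -0.90. These 2 calls were also lost with scaling to an equal spread, with the replicate or class block and on full arrays alone. That of Scn11a at 12 h was lost with equal array weights too (0.56).

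**Figure D4:**
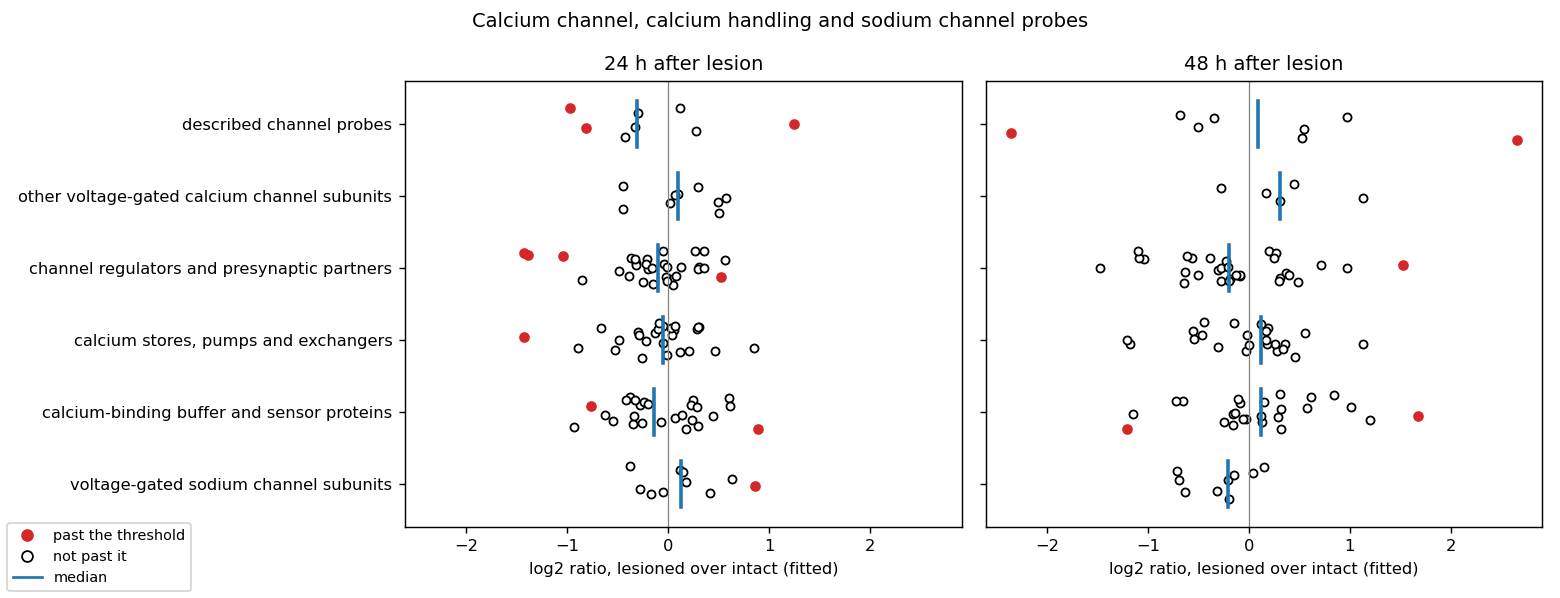
Fitted log2 ratio of lesioned over intact RNA (horizontal axis) at 24 h (left) and 48 h (right) for the 8 described channel probes and the probes of 5 gene lists (rows; vertical jitter carries no value). Red points passed the threshold, open points did not and blue bars are medians. Cacna2d1 at 2.66 and Cacna1i at -2.36 lie farthest from 0 of the probes drawn at 48 h.

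For each probe the 3 genes with the most similar course were found by Pearson's r over at least 18 shared arrays. For Cacna2d1 they were Ifitm3, an interferon-induced membrane protein gene (r 0.93, rho 0.82, 19 arrays), Prkcd, a protein kinase C gene (r 0.91, rho 0.45, 20 arrays), and Cd82, a tetraspanin gene (r 0.88, rho 0.30, 20 arrays). On full arrays the r was 0.70, 0.32 and -0.11, so the likeness of Cd82 was set by the sparse arrays. For Cacna1i they were the natriuretic peptide gene Nppa (r 0.88), the histone demethylase gene Kdm3a (r 0.85) and the kinase gene Map2k1 (r 0.84), with 0.51, 0.64 and 0.67 on full arrays. Cacna1b was most like Gabarap, an autophagy and receptor trafficking gene (r 0.83, and 0.79 on full arrays), and Cacna1a was most like the non-muscle myosin gene Myh10 (r 0.84, and 0.64). The closest genes were Csdc2 (0.70), Tesk1 (0.81) and Pnlip (0.72) for Cacna1e probes 21F09, 21H01 and 41D01, and Rdh16 (0.73) for Cacnb1. Probe 41D01 was next most like Rimbp2 (0.71), whose protein ties calcium channels to release sites. All points share array, time and labelling.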

How the data were processed

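The authors deposited 1 linear ratio of the 2 channels per probe and array, and these ratios were converted to log2 with no offset. How spots were scanned, background-corrected and normalized is not given in the sources used here. With ratios alone the signal above background is not known, and precision is limited by how many arrays there are. A mean per time was fitted to all 23 arrays with limma 3.58.1 in R 4.3.3, with array weights and a moderated variance, and p-values were two-sided. Of 5088 probes, 4423 carried 1 gene symbol, 2 several and 663 none. In data simulated on the same arrays, gaps included, with 200 changed probes (5 draws), 5.13% of the calls at 48 h and 3.51% at 148 h were false with array weights, against 49.7% and 63.5% with equal weights. At 24 h these shares were 3.98% and 1.01%, and at 296 h 7.69% and 63.7%. The simulated noise of each array was scaled by its fitted weight. These data therefore follow the weighted model and cannot decide between the 2 weightings. With array weights at 48 h 52.2% of changes of log2 2 were recovered and 10.1% of log2 1. All probes of the 6 genes were named, with up to 4 genes per list by smallest adjusted p and the 3 genes most like each probe. Calm2 was added beside Calm3. Members and lists were chosen with earlier results of these data known. Arrays with the same replicate number showed no shared deviation and were not treated as pairs in the main fit. Whether the samples were paired was not stated. Tried alternatives were equal weights, centring, scaling, robust variance, replicate and class blocks, full arrays only, probe means, other minimum numbers of arrays, fits of 1 time, the methods' t-test and leaving out each array.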

Additional observations from a re-analysis of the deposited data

Results flagged for a closer look

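The lesion effect of Cacna2d1 and Cacna1i differed between 48 h and the first hours, by a test of the difference itself. Cacna2d1 differed by 2.22 ± 0.42 on the log2 scale (SE, limma adjusted p = 0.0192), higher on all 3 arrays at 48 h than on any at 4 to 12 h. Cacna1i differed by -1.97 ± 0.37 (limma adjusted p = 0.0158), lower on all 3. Of the 48 h arrays 2 were sparse, with a wider spread over all probes. Without 48 h replicate 2, one of these, the differences were 1.68 and -1.36 and did not pass. No single group of samples was large enough for a search for outlying arrays.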

How the results depend on the processing

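Of the 57 combinations of probe and time, 6 passed the threshold with array weights, 3 with equal weights and 0 with the arrays of each time fitted alone. The 3 with equal weights were at 48 and 148 h, where equal weights called 698 of 4471 and 916 of 3187 tested probes. The methods' t-test gave 11 before and 0 after Benjamini-Hochberg adjustment. Before adjustment its share of all tested probes was lowest at 296 h (168 of 2833) and highest at 148 h (417 of 3187). Leaving out 1 array from the fit with array weights gave 4 to 8. In 48 h minus early 2 probes passed, and 0 did with scaling or with array class as a block. Chosen after seeing the data, 24 h minus early and 18 and 24 h minus early gave 0 each. Of all probes 0.239% and 0.199% passed there with 1 array per time required. With 1 array left out the count was 0 to 2, and 0 only without 48 h replicate 2. In late minus early 0 passed, and 1 (Cacna2d1) did with 1 array per time. With 1 array left out 0 to 1 passed (1 without 296 h replicate 1 or 2). The probe that passed there was not Cacna2d1, which had 1 array at 148 h and was not tested in those fits. In the mean over the times 4 passed, 0 with array class as a block, and 2 to 4 with 1 array left out (2 without 48 h replicate 1 or 2 or 148 h replicate 3). The test of equal times gave 0 under all alternatives run. Cacna1e probe 21F09 had a mean of 0.25, and the mean of its gene's 3 probes was -0.00834. That alternative reversed by averaging probes that disagree. The cause of the other changes was not tested.

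With the replicate block the counts were 6, 2, 0, 4 and 0, as without it, and no call of the 8 probes changed. Among list genes 3 calls were lost under it (Scn11a, Scn10a and the marker gene Ckm), and 9 of 19 under array class as a block. Arrays with the same number did not deviate together. Their correlations ran from -0.16 to 0.15 over 77 pairs (median -0.005), the median of 154 pairs of different number was 0.003, and 7 of 23 arrays correlated best with their own number. Of the 12 calls of the channel probes, robust variance kept 12 and median centring 11. Of 276 left-out values 254 kept direction and call, 22 lost the call and 0 changed sign. Missing values limit 148 and 296 h most, where 5 and 4 of the 8 probes could be tested. Both arrays at 296 h also had the same weight (0.390), so the full array counted no more than the sparse array.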
